A study of Mus musculus with 8 samples.

Results

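A set of 7 genes that carry out and regulate the recovery of bile acids by the ileum were followed across all arrays of a mouse YAP/TAZ knockdown series: Slc10a2, Fabp6, Slc51a, Slc51b, Nr1h4, Nr0b2 and Fgf15. The 7 genes were chosen by name, with earlier results of these data known. Each is read by 1 probe set that names no other gene, and they stand among 19938 genes measured in all. The animals were male mice of the outbred ICR stock, 8 weeks old. Their small intestine was transfected in vivo with siRNAs or plasmids, and 4 days later RNA was prepared from epithelial cells isolated from it. In the siRNA arm, 3 arrays are of intestine given an siRNA against GFP, a jellyfish gene (siGFP), and 3 of intestine given siRNAs against YAP and TAZ (siYAP/TAZ). In the other arm, plasmids coded for shRNAs, against the bacterial gene LacZ on 1 array (shLacZ) and against YAP and TAZ on 1 array (shYAP/TAZ). All groups share strain, sex, age and the transfection procedure. The labels name neither the stretch of small intestine that was taken nor separate mice behind the arrays of a group. The p-values therefore reflect only how far these samples lie apart, which may be technical spread.

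Bile acids made in the liver are taken back from the gut lumen mainly by enterocytes of the terminal ileum. Slc10a2 (ASBT) imports them through the brush border together with sodium, Fabp6 binds them inside the cell, and Slc51a and Slc51b form the OSTα-OSTβ dimer that releases them through the basolateral membrane. Inside the cell bile acids activate the nuclear receptor FXR, encoded by Nr1h4, which as background is known to drive Fabp6, both Slc51 genes, Nr0b2 (the corepressor SHP) and Fgf15, a hormone that travels to the liver and lowers bile acid synthesis there.

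To show what the FXR-responsive and the uptake genes carry before a start site, the 250 bases upstream of an annotated start were read. This was done for the 6 genes that have an entry in the RefSeq table (GRCm38.p6). For Nr1h4 the window (chr10:89506659-89506908) lies inside the span of the gene (chr10:89454234-89533645), while the other windows adjoin the outer end of their gene. FXR with its partner RXR is known to bind an inverted repeat of the half-site AGGTCA with 1 base between the copies, AGGTCANTGACCT, which reads the same on both strands. Among the 6 windows, Fabp6 came closest, with 2 stretches that each differ from the 12 fixed letters at 2 places, starting 222 and 142 bases before the start. Slc51b and Slc51a each had 1 stretch with 3 differences, and Slc10a2, Nr1h4 and Nr0b2 had no stretch with fewer than 4. Of 32851 windows of this length in the table, 0.959% hold a stretch with at most 2 differences, 9.63% one with at most 3 and 50.0% one with at most 4. Shown are 3 windows, printed 5′ to 3′ on the minus strand, on which these genes lie, with the closest stretches in capitals: Fabp6 (chr11:43601563-43601812), whose level varied most, Slc51b (chr9:65422774-65423023), which stayed bright on every array, and Slc10a2 (chr8:5105288-5105537), the importer, as a window with no close stretch.
Fabp6: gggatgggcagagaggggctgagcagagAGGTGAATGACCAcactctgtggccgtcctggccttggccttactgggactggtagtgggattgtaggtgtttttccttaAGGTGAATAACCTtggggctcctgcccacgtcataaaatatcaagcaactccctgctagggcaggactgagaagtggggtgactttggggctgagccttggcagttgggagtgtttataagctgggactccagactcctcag
Slc51b: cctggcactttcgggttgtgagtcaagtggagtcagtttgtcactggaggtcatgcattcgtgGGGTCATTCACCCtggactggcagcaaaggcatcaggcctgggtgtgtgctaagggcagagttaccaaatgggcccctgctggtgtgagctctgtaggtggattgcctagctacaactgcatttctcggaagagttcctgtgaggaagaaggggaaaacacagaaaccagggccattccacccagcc
Slc10a2: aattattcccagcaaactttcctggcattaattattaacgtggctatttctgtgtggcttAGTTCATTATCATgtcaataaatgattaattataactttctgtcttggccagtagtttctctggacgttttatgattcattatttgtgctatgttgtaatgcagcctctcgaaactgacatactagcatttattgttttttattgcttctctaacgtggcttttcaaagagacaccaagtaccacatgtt
These matches describe letters in a window and were not tested as binding sites.

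The arrays differed among themselves in several ways that run across the groups. The targeted genes came first: Yap1 differed by -0.12 (SE 0.32; exact two-sided permutation p = 0.8, n = 3 against 3) and Wwtr1, which encodes TAZ, by -0.28 (SE 0.36; exact two-sided permutation p = 0.6) between siYAP/TAZ and siGFP on the log2 scale. Neither target was lower beyond the spread between these arrays. In the shRNA arm, with 1 array per label, Yap1 differed by -0.09 and Wwtr1 by 0.06. The groups are therefore called by their labels, and a direction given below is a direction between labels. The highest deposited intensity lay between 11959 and 15713 on the arrays siGFP 1, siYAP/TAZ 1, shLacZ and shYAP/TAZ and between 18731 and 20064 on the other 4, and no label explains these 2 sets of arrays. Enterocyte markers were bright on all arrays: the 8 enterocyte markers, such as Sis (sucrase-isomaltase), Anpep (aminopeptidase N), Apob and Epcam, had a mean log2 level between 11.35 and 12.53 on each array. Levels below are log2 of the intensity after quantile normalization, and differences are knockdown label minus control label on that scale.

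Fabp6, the ileal bile acid binding protein, was either bright or close to the bottom of the array, and nothing lay between. It read 11.16, 4.24 and 10.45 on siGFP arrays 1, 2 and 3, and 8.75, 11.93 and 4.40 on siYAP/TAZ arrays 1, 2 and 3. It read 4.33 on shLacZ and 4.27 on shYAP/TAZ. In deposited intensity, the 4 low arrays lay between 17.7 and 21.1, where the lowest value of any probe set is 16.0005, and the 4 high arrays lay between 449.3 and 3553. The gap between the highest of the low arrays and the lowest of the high ones was 4.35 (20.4-fold), while the 4 low arrays spanned only 0.15. Both siRNA groups hold high and low arrays, so the groups overlap fully, and both shRNA arrays are low. The whole range as measured, 7.69 on the log2 scale or 206-fold, was the widest of all 19938 genes, and still the widest with 75th percentile centring or no normalization. Its size depends on how the floor is treated, since the low end lies close to it. With 15 subtracted from every intensity before the log, which removes most of the floor, it was 9.97 and ranked 2. In RNA from a mixed isolate, fewer cells that express a gene and less of its RNA per cell cannot be told apart.

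Slc10a2, the apical importer, split the arrays in the same place with 1 array set apart. Its level was 8.56, 4.79 and 8.85 on the siGFP arrays and 9.28, 9.22 and 4.55 on the siYAP/TAZ arrays, in replicate order. On shLacZ it was 4.55 and on shYAP/TAZ 6.53. The 4 arrays high in Fabp6 were the 4 highest in Slc10a2, within 0.72 of each other, and 3 of the low arrays lay near the floor with deposited intensities of 23.3 to 25.1. The shYAP/TAZ array stood between the sets at an intensity of 102.8, with Fabp6 at 20.4. The order within the high arrays was not shared: siYAP/TAZ 1 was the highest array for Slc10a2 and the lowest of the 4 for Fabp6. The range was 4.74 (26.6-fold), rank 46 of all genes.

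**Figure D1:**
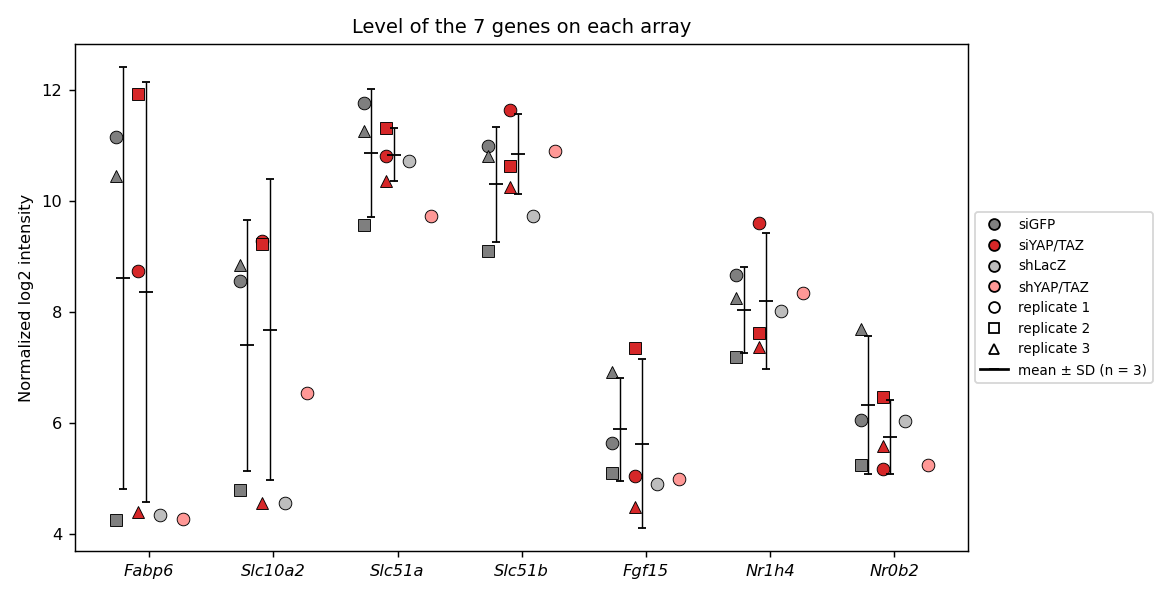
Normalized log2 intensity of each of the 7 genes (horizontal axis) on each of the 8 arrays; colour gives the group, marker shape the replicate number, and the bars the mean ± SD of the siRNA groups (n = 3). Fabp6 and Slc10a2 fall into a high and a low set of arrays in both siRNA groups, with a gap of 4.35 for Fabp6, while Slc51a and Slc51b stay above 9 on all arrays.

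The exporter pair varied far less. Slc51a, the OSTα subunit, read 11.78, 9.58 and 11.26 on siGFP and 10.82, 11.32 and 10.37 on siYAP/TAZ, with 10.73 on shLacZ and 9.74 on shYAP/TAZ. Its 4 lowest arrays, siGFP 2, shYAP/TAZ, siYAP/TAZ 3 and shLacZ in rising order, are the 4 low in Fabp6, with no gap at that point: shLacZ lay next to siYAP/TAZ 1. Slc51b, the OSTβ subunit, read 10.99, 9.11 and 10.81 on siGFP and 11.65, 10.64 and 10.25 on siYAP/TAZ, with 9.73 on shLacZ and 10.90 on shYAP/TAZ. Its range of 2.54 (5.83-fold) and that of Slc51a, 2.20 (4.61-fold), were ranks 1046 and 1809 of all genes. With 15 subtracted before the log, the ranks were 2361 for Slc51b and 3675 for Slc51a. No array came near the floor for either gene: the lowest deposited intensities were 766.9 for Slc51a and 548.1 for Slc51b. On shYAP/TAZ, where Fabp6 was at the floor, Slc51b was the third highest of the 8 arrays.

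The regulators and the hormone did not follow Fabp6 as a block. Nr1h4, the FXR gene, read 8.68, 7.18 and 8.26 on siGFP and 9.61, 7.62 and 7.37 on siYAP/TAZ, with 8.02 on shLacZ and 8.35 on shYAP/TAZ. It was measured well above the floor on all arrays, including those with Fabp6 at the floor, and siYAP/TAZ 2, the highest array for Fabp6, was the third lowest for Nr1h4. Nr0b2, the FXR target that encodes the corepressor SHP, read 6.05, 5.24 and 7.69 on siGFP and 5.16, 6.48 and 5.58 on siYAP/TAZ, with 6.04 on shLacZ and 5.23 on shYAP/TAZ. Fgf15 read 5.64, 5.11 and 6.92 on siGFP and 5.04, 7.35 and 4.49 on siYAP/TAZ, with 4.90 on shLacZ and 4.99 on shYAP/TAZ. Only siGFP 3 and siYAP/TAZ 2 lay clearly up for Fgf15, 1.27 or more above the other 6 arrays, at deposited intensities of 126.3 and 150.1. Both Fgf15 and Nr0b2 are dim, with deposited intensities down to 22.5 and 33.2, which leaves the sizes of their differences uncertain. The array siYAP/TAZ 1 combined the highest Slc10a2, Slc51b and Nr1h4 levels with the lowest Nr0b2 level and an Fgf15 level of 5.04.

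All 7 genes ranged over at least 2 on the log2 scale across the 8 arrays, against 12.5% of all genes. The median range was 2.54 for the 7 genes and 1.13 for all genes. Such ranges were not particular to the 7: 8 of 8 crypt markers (median 3.43) and 7 of 7 B and plasma cell markers (3.72) reached 2 as well. So did 11 of 17 proximal genes (2.99) and 6 of the 9 other ileal genes (2.15). These ranges mix the spread within groups and any difference between them. The 7 genes and the lists were chosen with earlier results of these data known, so these shares are a description and no test.

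**Figure D2:**
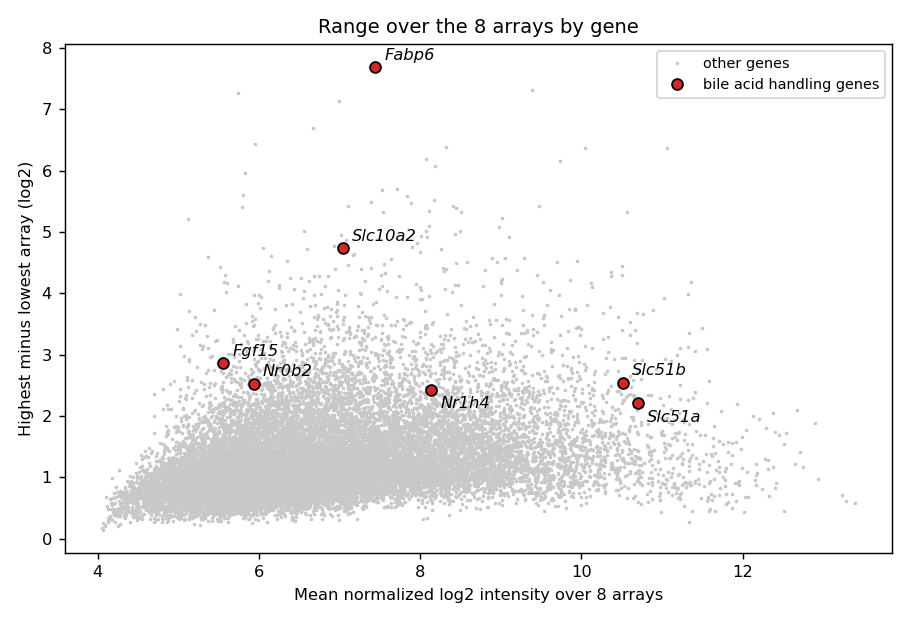
Each point is 1 of the 19938 genes, with its mean normalized log2 intensity over the 8 arrays on the horizontal axis and its highest minus lowest array (log2) on the vertical axis; the 7 bile acid handling genes are in red. Fabp6 has the widest range of all genes at 7.69 (rank 2 with 15 subtracted before the log), and the other 6 lie between 2.20 and 4.74.

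Between the labelled groups of the siRNA arm, no difference was larger than the spread between arrays. For Fabp6 the mean was 8.62 ± 3.80 over the siGFP arrays and 8.36 ± 3.78 over the siYAP/TAZ arrays (SD, n = 3 each), a difference of -0.26 with an SE of 2.11, an exact two-sided permutation p of 1.0 and a 95% confidence interval from -5.06 to 4.54. For Slc10a2 it was 7.40 ± 2.27 and 7.69 ± 2.72, a difference of 0.28 (SE 1.41, 95% confidence interval -2.91 to 3.48). The intervals for these uptake genes are so wide that large differences in either direction lie within them. The exporters were measured more tightly: Slc51a differed by -0.03 (SE 0.55, 95% confidence interval -1.29 to 1.23) and Slc51b by 0.54 (SE 0.56, 95% confidence interval -0.73 to 1.82). The difference was 0.16 (SE 0.63) for Nr1h4, -0.59 (SE 0.61) for Nr0b2 and -0.26 (SE 0.74) for Fgf15. Of the 7 genes, 3 were higher and 4 lower in the mean, with a median difference of -0.03 beside -0.02 over all genes. By limma, 0 of the 7 passed the threshold of 0.05 on the adjusted p, as did 0% of all genes, and the adjusted p was 1.00 for each of the 7. Before adjustment, 0 of the 7 and 237 of all genes had a p under 0.05. The groups overlapped for all 7, whereas 4.59% of all genes had groups that did not overlap. The exact two-sided permutation p lay between 0.6 and 1.0 for the 7 genes, with 0.1 the smallest that 3 arrays against 3 allow.

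Which siRNA array is left out decides the sign for all 7 genes. How many of all genes change sign in this way was not counted. Fabp6 stood at -2.44 without siGFP 2 and at 1.72 without siYAP/TAZ 3, the arrays on which it was at the floor. Slc10a2 turned to -1.02 without siGFP 2 and stood at 1.85 without siYAP/TAZ 3. Slc51a moved between -0.68 without siGFP 2 and 0.42 without siGFP 1, and Slc51b between -0.055 and 0.89 without the same arrays. Nr1h4 turned to -0.55 without siYAP/TAZ 1, Nr0b2 to 0.094 without siGFP 3 and Fgf15 to 0.31 without siYAP/TAZ 3. None of these fits called any of the 7 genes.

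Taking both arms together, 4 arrays with a knockdown label against 4 controls with the arm as a term, gave differences of 0.71 (SE 1.18) for Slc10a2, 0.70 (SE 0.46) for Slc51b and 0.20 (SE 0.51) for Nr1h4. They were -0.21 (SE 1.74) for Fabp6, -0.27 (SE 0.47) for Slc51a, -0.64 (SE 0.50) for Nr0b2 and -0.17 (SE 0.61) for Fgf15. The 2 arms share no arrays, and this fit includes the siRNA arrays already described. By limma, 0 of the 7 genes and 0% of all genes passed an adjusted p of 0.05, with 0 of the 7 and 534 of all genes at an unadjusted p under 0.05.

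**Figure D3:**
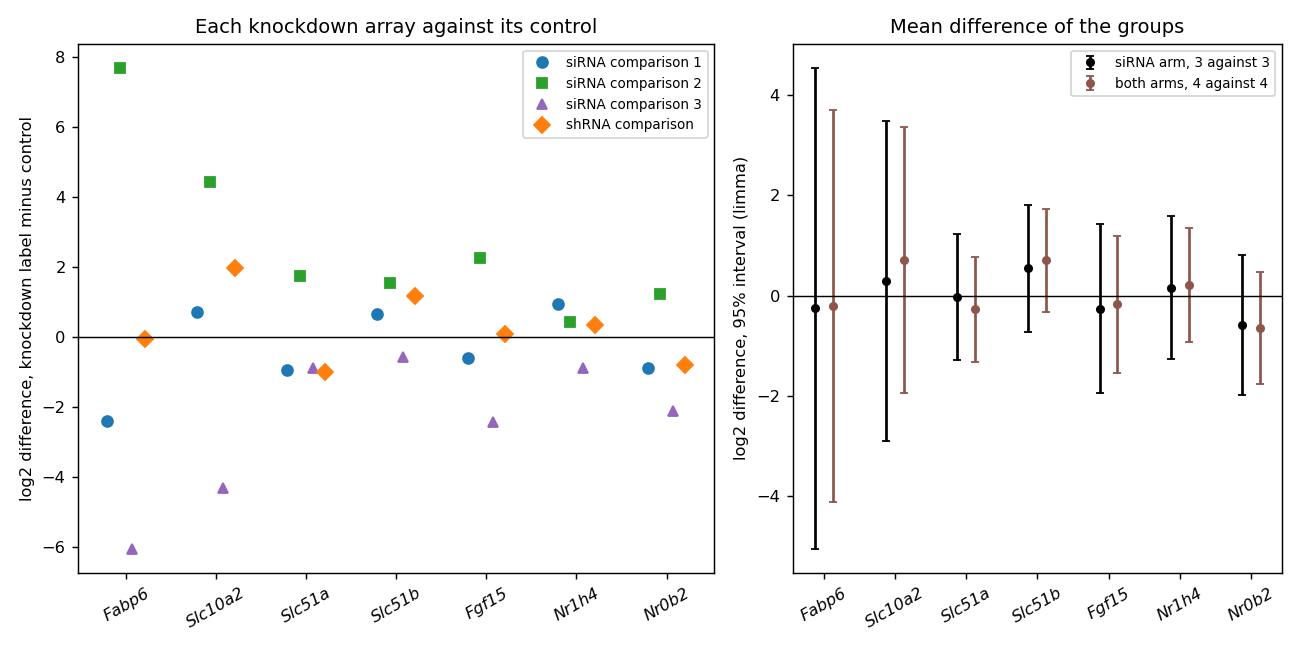
Left, log2 difference of each knockdown array minus its labelled control array, for the 7 genes; right, mean difference of the groups with its 95% confidence interval from limma, for the siRNA arm (3 against 3) and both arms (4 against 4). The single comparisons spread to both sides of 0, from 7.69 to -6.05 for Fabp6, and all intervals on the right include 0.

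The sample descriptions name for each control array the knockdown it serves, without saying what the 2 arrays share, and the 4 single comparisons set up in this way disagreed. In siRNA comparison 2 all 7 genes were higher on the array labelled siYAP/TAZ, 6 of them by at least 2-fold where 13.2% of all genes differed that much in either direction. Fabp6 differed by 7.69 (206-fold), Slc10a2 by 4.43 (21.6-fold), Fgf15 by 2.25 (4.74-fold) and Slc51a by 1.75, while Nr1h4 differed by 0.44. In siRNA comparison 3 all 7 were lower on the array labelled siYAP/TAZ, 4 of them by at least 2-fold, against 3.81% of all genes. There Fabp6 differed by -6.05 (66.3-fold), Slc10a2 by -4.30 (19.8-fold), Fgf15 by -2.43 (5.37-fold) and Nr0b2 by -2.11 (4.31-fold), and Nr1h4 by -0.89. Thus the pair of comparisons with the widest differences ran in opposite directions, gene for gene. No single comparison has replicates, and the folds of Fabp6 and Slc10a2 rest on arrays near the floor: with 15 subtracted before the log, Fabp6 differed by 9.97 and -7.84.

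In the remaining comparisons the 7 genes parted. In siRNA comparison 1, where both arrays are high in Fabp6, Fabp6 differed by -2.41 (5.31-fold) and was the only one of the 7 past 2-fold, against 4.35% of all genes. Nr0b2 at -0.89, Slc51a at -0.96 and Fgf15 at -0.60 were lower there as well, while Nr1h4 at 0.93, Slc10a2 at 0.72 and Slc51b at 0.66 were higher. In the shRNA comparison, where Fabp6 is at the floor on both arrays, 2 of the 7 differed by at least 2-fold, against 4.59% of all genes: Slc10a2 by 1.98 (3.96-fold) and Slc51b by 1.17 (2.25-fold), both higher on shYAP/TAZ. Slc51a stood at -0.99 and Nr0b2 at -0.80, Nr1h4 at 0.33, Fgf15 at 0.09 and Fabp6 at -0.07. In these 2 comparisons the subunits of the exporter dimer differed in opposite directions, Slc51a lower and Slc51b higher, whereas in siRNA comparisons 2 and 3 both subunits went the same way. None of the 7 genes kept 1 direction in all 4 comparisons, and the share of all genes that did was not counted. Every sign given here was the same with 75th percentile centring, without normalization and with 15 subtracted. The 2-fold counts of these 2 comparisons depended on that choice. In the shRNA comparison Slc51a also passed 2-fold under each of these alternatives, lower on shYAP/TAZ. It stood at -1.12 both with 75th percentile centring and without normalization. With 15 subtracted, Nr0b2 passed 2-fold as well, at -1.17 in the shRNA comparison and -1.31 in siRNA comparison 1.

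The arrays of siRNA comparison 1 and of the shRNA comparison are also those with the lower highest intensities. Within that set of 4 arrays, the mean of the knockdown labels minus that of the controls was 1.35 for Slc10a2, 0.91 for Slc51b and 0.63 for Nr1h4, and -1.24 for Fabp6, -0.97 for Slc51a, -0.85 for Nr0b2 and -0.26 for Fgf15. Within the other set of 4 arrays it was 0.06 for Slc10a2, 0.49 for Slc51b and -0.23 for Nr1h4, and 0.82 for Fabp6, 0.43 for Slc51a, -0.44 for Nr0b2 and -0.09 for Fgf15. Fabp6, Slc51a and Nr1h4 thus changed sign between the sets, and the other 4 kept theirs. Whether the sets have a part in the differences was not tested. A fit with the set as a term tested only the knockdown label and called 0 of the 7 genes. Each set holds as many knockdown as control arrays, so that term left the differences themselves unchanged.

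Genes known to be graded along the small intestine were set beside the 7, array by array. Onecut2, a transcription factor of the proximal small intestine, read 5.43, 8.46 and 6.24 on siGFP, 5.71, 5.98 and 8.87 on siYAP/TAZ, 8.20 on shLacZ and 9.63 on shYAP/TAZ. The 4 arrays low in Onecut2 are the 4 high in Fabp6; Onecut2 was singled out after its values were seen. The 17 measured genes of the proximal list had a mean level of 8.39, 10.08 and 9.50 on siGFP, 8.20, 9.01 and 9.95 on siYAP/TAZ, 9.93 on shLacZ and 9.17 on shYAP/TAZ. That mean was highest on siGFP 2, siYAP/TAZ 3 and shLacZ, all low in Fabp6, but siGFP 3, high in Fabp6, lay above shYAP/TAZ, which is low in it. Among the brightest of the list, Apoa4, an apolipoprotein, ranged from 11.54 on siGFP 1 to 13.42 on shYAP/TAZ, Ms4a10 from 10.67 on siGFP 1 to 12.19 on siGFP 2, Ada, adenosine deaminase, from 9.64 on siYAP/TAZ 1 to 12.63 on siGFP 3, and Creb3l3, a regulator of lipid genes, from 9.40 on siGFP 1 to 11.74 on siGFP 3. Ada and Creb3l3 were highest on siGFP 3, which is high in Fabp6, so the list did not run 1 way as a whole. Gata4, which is known to hold down Slc10a2 in the proximal gut, lay between 7.61 and 8.42 on the 4 arrays high in Fabp6 and between 8.62 and 9.22 on the 4 low in it. Apoa4 parted the arrays at the same place by a narrow margin, with 11.54 to 13.16 against 13.27 to 13.42. Fabp1, the liver-type fatty acid binding protein also made by proximal enterocytes, did so with 5.28 to 10.24 against 11.33 to 11.65. Fabp1, like Onecut2, was singled out after its values were seen. How many of the 17 genes, or of all genes, part the arrays at that place was not counted. The part of these genes in the variation of the 7 was not tested.

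The 9 other genes of the ileal list did not share 1 pattern with Fabp6. In the mean of the siRNA arm 1 was higher and 8 were lower with the siYAP/TAZ label, with a median difference of -0.61. Of the 9, only Cubn had groups that did not overlap, where 4.59% of all genes had such groups. Their mean level lay between 10.45 and 10.94 on siGFP, between 9.02 and 10.60 on siYAP/TAZ, and at 10.40 and 9.20 on shLacZ and shYAP/TAZ. Enpp3, an ectonucleotide pyrophosphatase, was highest on siGFP 2 at 12.96 and siYAP/TAZ 3 at 12.80, both at the floor for Fabp6. Naaladl1, a brush border peptidase, ranged from 10.16 on shYAP/TAZ to 11.81 on siGFP 3, while Clec2h, between 11.66 and 12.95, and the membrane mucin gene Muc3, between 11.29 and 12.65, were bright throughout. Cubn, the ileal receptor that takes up intrinsic factor with its vitamin B12, differed by -4.99, -0.76, -2.79 and -6.57 in siRNA comparisons 1 to 3 and the shRNA comparison and so did not follow Fabp6; it was singled out after its values were seen. The 6 measured colon genes had a mean level of 6.36 to 6.89 on each array, with Slc26a3 between 8.97 and 10.06 and Hoxb13 between 5.82 and 7.43. Aqp4, named for its range of 4.53, was the only 1 of these 6 to range over at least 2 on the log2 scale.

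**Figure D4:**
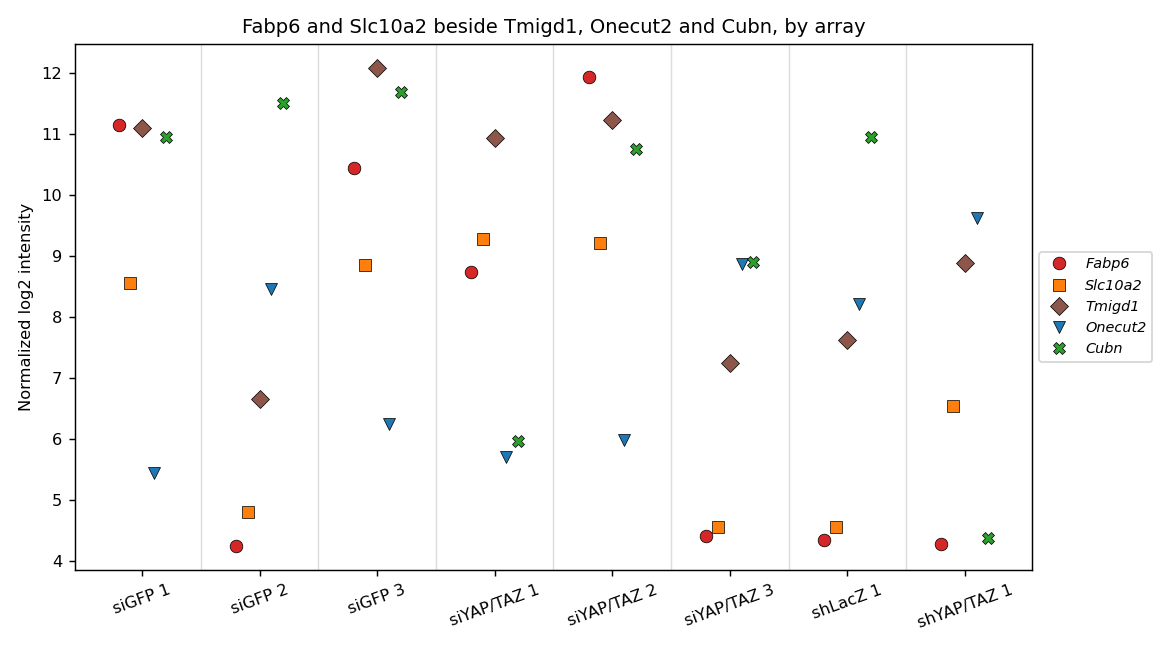
Normalized log2 intensity of Fabp6, Slc10a2, Tmigd1, Onecut2 and Cubn on each of the 8 arrays, 1 column per array, no replicates within a column. Onecut2 is between 5.43 and 6.24 on the 4 arrays where Fabp6 is at 8.75 or more. On the 4 where Fabp6 is at 4.40 or less, Onecut2 is between 8.20 and 9.63. Tmigd1 runs with Slc10a2, and Cubn with neither Slc10a2 nor Fabp6. Onecut2 and Cubn were singled out after their values were seen, and the proximal list that holds Onecut2 did not run 1 way as a whole.

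To find the genes most like each of the 7, profiles over the 8 arrays were centred on their own mean and compared by the root mean square difference on the log2 scale, a description with no test. Tmigd1, an epithelial adhesion molecule, was the nearest to Slc10a2 at 0.53 and the nearest to Fabp6 at 1.62, followed for Fabp6 by Slc10a2 at 1.63 and Suox, sulfite oxidase, at 1.76. Tmigd1 read 11.11, 6.66 and 12.09 on siGFP, 10.94, 11.23 and 7.25 on siYAP/TAZ, 7.62 on shLacZ and 8.89 on shYAP/TAZ, so it had the shYAP/TAZ array in between, as Slc10a2 did. Next to Slc10a2 came Plb1, a brush border phospholipase, at 0.98 and Lpcat4 at 1.08. Of the 7, Fabp6 had the most distant nearest profile, although the range of Cubn, 7.31, was almost as wide as its own. Slc51a was nearest to Slc44a4, a choline and thiamine pyrophosphate transporter, at 0.30, Pyy, an enteroendocrine hormone of the distal gut, at 0.33 and Il17rc at 0.40. Slc51b was nearest to the galactosyltransferase B4galt1 at 0.36, Ehd4 at 0.37 and the monocarboxylate transporter Slc5a8 at 0.38. For Nr1h4 the nearest were Stambpl1 at 0.28, Megf9 at 0.29 and Ampd3 at 0.31. Fgf15 was nearest to Trpm6, a magnesium channel, at 0.29, Abi3bp at 0.41 and the brush border protease Mep1a, of the ileal list, at 0.41. Nr0b2 was nearest to Trpv3 at 0.34, Mfhas1 at 0.35 and Ptdss1 at 0.36. Among the 7 themselves, the closest were Slc51b and Nr1h4 at 0.43, then Fgf15 and Nr0b2 at 0.61 and Slc51a and Nr0b2 at 0.66. The exporter subunits lay 0.73 apart. This measure grows with the amplitude of a profile, so Fabp6, with the widest range, lay far from all others but Slc10a2, at 2.52 to 3.04.

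The wider bile acid pathway was read from lists chosen by function, and no member of any passed an adjusted p of 0.05 in either limma fit. Of 13 other bile acid and organic anion transporters, 5 were higher and 8 lower in the mean of the siRNA arm, with a median difference of -0.18. Their brightest members were Abcc2 (MRP2), an apical export pump, at -0.86 (SE 0.58), the sterol exporters Abcg5 at -0.56 and Abcg8 at -0.71, and Abcg2 at -0.18. The liver importer Slc10a1, of the same family as Slc10a2, lay between 4.55 and 6.17. Of 15 measured sensing partners and regulators, 3 were higher and 12 lower, with a median of -0.24, and 3 had groups that did not overlap, all lower with the siYAP/TAZ label, where 4.59% of all genes had such groups. These were Rxra, the partner of FXR, at -0.58 (SE 0.27), Nr5a2 (LRH-1), a regulator of Nr0b2, at -0.89 (SE 0.34), and Vdr, the vitamin D receptor, which also senses lithocholic acid, at -1.17 (SE 0.46); the first 2 were named because their groups do not overlap. Their adjusted p was 1.00 in each case. Hnf4a at -0.38, Gata6 at -0.24 and Cdx2 at -0.36, intestinal transcription factors, had overlapping groups.

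Malrd1, known to promote Fgf15 release from enterocytes, differed by -0.61 (SE 0.44), and the FGF15 receptor pair Fgfr4 and Klb, which act mainly in liver, by -0.20 and -0.16. Of 14 genes of bile acid synthesis and conjugation, 4 were higher and 10 lower, with a median of -0.20. Cyp7a1, the rate-limiting enzyme of the classic pathway in liver, lay between 4.86 and 5.43 on all arrays. Cyp27a1, which starts the alternative pathway, differed by -0.52, Hsd17b4 by -0.54, Akr1d1 by 0.07 and Acot8 by 0.17. Of 5 measured detoxification genes, 3 were higher and 2 lower in the mean: Cyp3a11 by -0.87 (SE 1.28), Cyp3a25 by -0.90, Cyp3a13 by 0.01 and the sulfotransferase Sult2b1 by 0.21 were the brightest. Cyp3a11 ranged from 5.81 on siGFP 1 to 11.24 on siGFP 2, the array lowest in Fabp6. The Cyp3a genes are similar in sequence and can share array signal.

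Markers of other cells in the isolate were read for their part in the same arrays. The crypt markers, such as Olfm4, Slc12a2, Mki67 and Ccnb2, had a mean level of 9.19, 8.81 and 6.27 on siGFP, 8.38, 6.74 and 6.04 on siYAP/TAZ, 8.40 on shLacZ and 7.80 on shYAP/TAZ. They were lowest on siYAP/TAZ 3, siGFP 3 and siYAP/TAZ 2, of which 1 is at the floor for Fabp6 and 2 are high in it. All 8 crypt markers were lower in the mean of siYAP/TAZ, with a median difference of -0.83. Of the 7 measured B and plasma cell markers, all were higher in the mean of siYAP/TAZ, with the highest mean level, 8.22, on siYAP/TAZ 2 and 6.96 on siYAP/TAZ 3, against 4.90 to 5.80 elsewhere. The first of these is the highest array for Fabp6, and on the other Fabp6 is at the floor. The hepatocyte list had a mean level of 5.43 to 6.56, and Alb, which encodes albumin, lay between 5.56 and 6.13 on all arrays. The mean level lay between 5.63 and 6.55 for T cell markers, 6.08 and 7.70 for myeloid, 6.65 and 7.81 for fibroblast and smooth muscle and 5.35 and 6.24 for endothelial markers. All 6 myeloid markers and 7 of the 8 enterocyte markers were lower in the mean of siYAP/TAZ. The T cell, fibroblast and smooth muscle, endothelial and hepatocyte lists ran both ways. The part of these cells in the levels of the 7 genes was not tested.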

How the data were processed

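The authors deposited linear intensities of 28853 probe sets for each of 8 Affymetrix arrays. Per the labels' protocols, biotin labelling used Affymetrix's WT terminal labelling kit. How the deposited intensities were background corrected, summarised and scaled is not stated in the labels. The values were put on the log2 scale and quantile normalized. Probe sets naming 1 gene in the platform annotation (21789; 1621 naming several were left out) were given current symbols through Entrez identifiers, and each of 19938 genes was represented by its probe set with the highest mean. No filter on dim genes was applied. Groups follow the sample titles. Tests were made with limma 3.58.1 in R 4.3.3 (lmFit, eBayes, Benjamini-Hochberg over all genes, threshold 0.05) and, per gene, an exact permutation test. The fits were run on simulated data with known changes, drawn independently for each gene and array, to check the mean error of the estimates. That check does not show that such changes would be detected on these arrays. Depth does not apply to arrays, and their number limits the precision. The 7 genes and the lists were chosen with earlier results of these data known. Outside the 7, genes named are the up to 4 brightest of each list and the 3 nearest profiles of each gene, with predicted genes and those in the dimmest 33.3% passed over for the latter; Gata4, Slc10a1 and Cyp7a1 are named for their known role and Fabp1 after its values were seen, and other exceptions are named as such. Alternatives covered the normalization, an offset of 15, the choice of probe sets, a filter on the dimmest 33.3%, the prior, array weights, a replicate block, the 2 sets of arrays and leaving out each siRNA array.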

Additional observations from a re-analysis of the deposited data

Results flagged for a closer look

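Of 79 genes looked at singly (the 7, and others of the fixed lists), 8 had all 3 siRNA differences, knockdown minus assigned control, on one side of 0 and the single shRNA difference on the other. How many of all 19938 genes show this pattern was not counted, so the number 8 is no result by itself. None of the 7 bile acid genes was among the 8. Hnf4a, a nuclear receptor of enterocytes, read -0.77, -0.19 and -0.18 on the log2 scale in the siRNA arm and 0.48 in the shRNA arm. Cdx2, an intestinal transcription factor, read -0.29, -0.71 and -0.07 against 0.43. The sulfotransferase gene Sult2b1 read 0.39, 0.12 and 0.13 against -0.098. Ada read -0.63, -0.95 and -0.37 against 0.22, and the brush border peptidase gene Anpep -0.73, -0.14 and -0.31 against 0.36. The B cell genes Cd22 (0.09, 3.77 and 1.95 against -1.32) and Cd79b (0.15, 3.70 and 1.13 against -1.16) spread most within the siRNA arm. The myeloid gene Lyz2 read -0.17, -1.12 and -0.72 against 0.11. The shRNA arm holds 1 array per label, so its own spread is unknown. A term for the difference between the arms therefore takes its error from the siRNA arrays alone, and it passed the threshold for none of the 8 (limma, adjusted p = 1.00 for each). That result does not show that the arms act alike.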

How the results depend on the processing

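None of the 7 genes was called under any alternative, in either fit. Over all genes, the siRNA arm gave 1 call with the replicate number as a block, 3 with the array set as a block (added after the data were seen) and between 0 and 13 when 1 array was left out, the 13 without siYAP/TAZ 1. The fit over both arms gave 265 calls with array weights, 4 with the replicate number as a block, 8 with the array set as a block and 0 without any 1 siRNA array. Replicate numbers matched the likeness of the arrays only in part. The deviations from the group means correlated at 0.75 for number 1, -0.13 for number 2 and 0.57 for number 3. The arrays siYAP/TAZ 1 and 3 were each closest to the siGFP array of their number, whereas siYAP/TAZ 2 was closest to siGFP 3, at 0.58. Deviations within a group of 3 arrays sum to 0, so these correlations depend on one another. Array weights turned the siRNA arm differences of Slc10a2 to -0.46, Nr1h4 to -0.13, Nr0b2 to 0.0098 and Slc51a to 0.28, and the differences over both arms of Fabp6 to 0.15 and Fgf15 to 0.052. With 75th percentile centring Slc51a turned to 0.0072 in the siRNA arm. The cause was not tested.

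Leaving out 1 array moved the siRNA arm differences between -2.44 and 1.72 for Fabp6, -1.02 and 1.85 for Slc10a2, -0.68 and 0.42 for Slc51a, -0.055 and 0.89 for Slc51b, -1.12 and 0.31 for Fgf15, -0.55 and 0.57 for Nr1h4 and -1.13 and 0.094 for Nr0b2. Over both arms the ranges were -1.74 to 1.20 for Fabp6, -0.14 to 1.89 for Slc10a2, -0.77 to 0.0063 for Slc51a, 0.31 to 0.97 for Slc51b, -0.77 to 0.24 for Fgf15, -0.29 to 0.50 for Nr1h4 and -1.03 to -0.17 for Nr0b2. Leaving out the dimmest 33.3% of genes removes Fgf15 and Nr0b2 from the fit. In siRNA comparison 2 the median of all genes was 0.02 after quantile normalization and 0.13 with 75th percentile centring, small beside the differences given there. Signal near the floor limits Fabp6 and Slc10a2 on their low arrays, and Fgf15 and Nr0b2 on most.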
